A study of Solanum lycopersicum with 18 samples.

Results

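CBF1, a cold-response transcription factor gene of tomato, and its neighbours LOC109119806 and LOC101263186 make up 3 of the 23348 genes in a table of leaf transcript levels. They were picked by their gene identifiers as same-strand neighbours on chromosome 3, and were selected on their measured FPKM in the groups described here as well as on their position. All of their levels and differences below are therefore descriptions, and no test is given for them. Leaves came from Micro-TOM (MT), a dwarf laboratory cultivar, and from Micro-TOM-EX (EX), a related material whose suffix is not explained in the labels. Each was sampled at 0, 4 and 12 h, with 3 RNA sequencing libraries for each of the 6 groups. The growth protocol describes cold treatment of both materials for these hours, but the stress label calls all MT libraries control and all EX libraries cold, including those of 0 h. Time of day also moved with the hours, so hours of cold and time of day cannot be told apart, and the labels do not tell whether the 3 libraries of a group are different plants.

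CBF proteins (C-repeat binding factors, also called DREB1 proteins) belong to the AP2/ERF family of plant transcription factors. They bind the C-repeat or dehydration-responsive element in the promoters of cold-regulated genes and switch on proteins that protect cells against chilling and loss of water. In Arabidopsis and tomato CBF transcripts are known to rise within hours of transfer to cold and to be gated by the circadian clock and by light, and in several plants CBF genes lie side by side in clusters. The reference table used here names only CBF1 and lists both neighbours as protein-coding genes without a name or function. CBF1 was also the 1 row analysed here with a symbol that begins with CBF.

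In the deposited coordinates, whose genome build is not named, the 3 genes lie on the plus strand of chromosome 3 within 7184 bases. LOC109119806 runs from 3711479 to 3712398, CBF1 from 3714712 to 3715582 and LOC101263186 from 3717643 to 3718662. The gap between LOC109119806 and CBF1 is 2313 bases and that between CBF1 and LOC101263186 is 2060 bases, with 0 other listed genes between them. Each gene has 1 listed transcript, of 920, 871 and 1020 bases in that order, which is also the length of the gene, so each is listed as a single uninterrupted exon. Reads from closely similar copies can be shared out between genes in counting. Sequences of the 3 genes were not used here, so how alike they are, and how much of each level could belong to a neighbour, was not tested.

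Levels are FPKM, fragments scaled to transcript length and to the library's depth, which allows levels of different genes to be compared. The steps between low FPKM values placed the depth at 16300000 to 18400000 fragments per library. At this depth the CBF1 values correspond to an estimated 154 to 1842 fragments per library. The LOC109119806 values correspond to 11 to 664 fragments, and those of LOC101263186 to 3 to 1462. The 17 matched leaf genes (light-harvesting and Rubisco small subunit genes, and FESOD) summed to 33020 to 91100 FPKM in every library, and 5 matched genes typical of fruit, pollen and other organs to 0.41 to 3.1 FPKM. On the second principal component, the first MT libraries of 0 h and of 4 h stood apart from the other libraries (61.9 and 52.6 against -40.7 to 14.3), and results that rest on them are also given without them.

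All 3 genes had their highest group means at 0 h in both lines, and lower means at 4 and 12 h. CBF1 was the most abundant of them in all 18 libraries, and LOC101263186 was above LOC109119806 in 14 of the 18. CBF1 read 80.2, 29.57 and 111.17 FPKM in the MT libraries of 0 h, and 91.61, 131.23 and 136.66 in those of EX. At 4 h it read 20.2, 15.62 and 14.72 FPKM in MT and 27.35, 19.7 and 28.74 in EX. At 12 h it read 42.2, 16.27 and 36.02 FPKM in MT and 14.05, 77.79 and 11.93 in EX. The 4 h libraries were thus all low, whereas 12 h held both low and intermediate libraries, and 1 EX library of 12 h lay near the MT level of 0 h.

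The order of group means for CBF1 was EX at 0 h (119.8 ± 24.6 FPKM), MT at 0 h (73.6 ± 41.2), EX at 12 h (34.6 ± 37.4), MT at 12 h (31.5 ± 13.5), EX at 4 h (25.3 ± 4.87) and MT at 4 h (16.8 ± 2.94; SD, n = 3 each). Every pair of neighbours in this order overlapped in its libraries. By level at 0 h, CBF1 stood above 94.7% of the tested genes in EX and above 90.2% in MT. It stood above 72.6% and 59.6% of them at 4 h. Of the 12 later libraries, 3 were above the lowest 0 h library, which was library 2 of MT.

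LOC101263186, the gene 3' of CBF1, ranged more widely. It read 58.88, 13.16 and 32.51 FPKM in MT at 0 h and 32.31, 95.32 and 61.65 in EX at 0 h. At 4 h it read 5.33, 4.93 and 2.41 FPKM in MT and 12.81, 11.89 and 20.75 in EX. At 12 h it read 3.68, 0.85 and 5.11 FPKM in MT and 2.83, 16.16 and 0.19 in EX, the last value corresponding to about 3 fragments. EX at 4 h therefore kept an intermediate level that MT at 4 h did not have, and the EX libraries of 12 h spread from near 0 to the 4 h level.

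The order of means for LOC101263186 was EX at 0 h (63.1 ± 31.5 FPKM), MT at 0 h (34.9 ± 22.9), EX at 4 h (15.2 ± 4.87), EX at 12 h (6.39 ± 8.56), then MT at 4 h (4.22 ± 1.58) and at 12 h (3.21 ± 2.17; SD, n = 3 each). Neighbours in this order overlapped throughout. Its level passed 89% of the tested genes in EX at 0 h and 20.8% of them in MT at 12 h.

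LOC109119806, the gene 5' of CBF1, was the lowest of the 3 in most libraries. It read 47.88, 10.81 and 4.84 FPKM in MT at 0 h and 10.82, 32.19 and 22.5 in EX at 0 h. At 4 h it read 6.35, 3.24 and 2.14 FPKM in MT and 1.14, 0.75 and 2.02 in EX. At 12 h it read 1.54, 1.48 and 1.01 FPKM in MT and 2.91, 2.04 and 1.6 in EX. Unlike CBF1, it was low in every library of 12 h, and its highest value was in library 1 of MT at 0 h, 1 of the libraries that stood apart.

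By group mean LOC109119806 was highest at 0 h, with 21.8 ± 10.7 FPKM in EX and 21.2 ± 23.3 in MT, followed by 3.91 ± 2.18 for MT at 4 h, 2.18 ± 0.667 for EX at 12 h, 1.34 ± 0.290 for MT at 12 h and 1.30 ± 0.651 for EX at 4 h (SD, n = 3 each). In that order only EX at 12 h and MT at 12 h did not overlap. In EX its level passed that of 69.1% of the tested genes at 0 h and of 8.75% at 4 h.

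**Figure D1:**
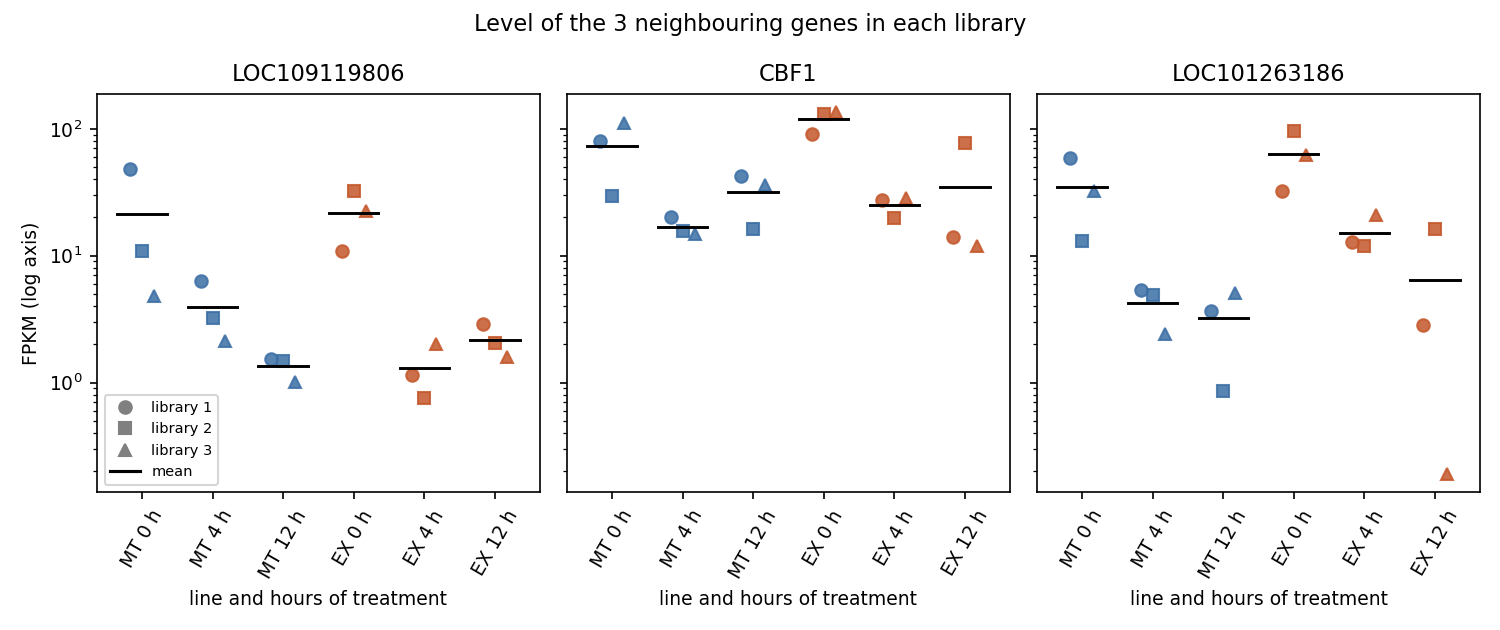
Points show FPKM on a log axis in each of the 18 libraries, by line and hours, with 1 panel per gene in chromosome order, and bars mark group means. The 0 h groups hold the highest means in each panel, and EX at 12 h holds CBF1 libraries at 14.05, 77.79 and 11.93 FPKM.

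The first question of the time course is how the levels of the 3 genes in MT leaves at 4 and 12 h compared with 0 h. Differences are of mean log2(FPKM + 1), a scale that compresses those of weakly expressed genes. CBF1 was lower at 4 h than at 0 h by a log2 difference of -1.88 (pooled SD of the libraries 0.71). LOC101263186 differed by -2.60 (SD 0.82) and LOC109119806 by -1.70 (SD 1.19). All 3 libraries of 4 h were below all 3 of 0 h for CBF1 and LOC101263186, 2 of the 3 genes, an arrangement found in 11.6% of all tested genes. For LOC109119806 library 1 of 4 h (6.35 FPKM) lay above library 3 of 0 h (4.84 FPKM). That library of 4 h was 1 of those that stood apart, and libraries 2 and 3 of 4 h were below all libraries of 0 h.

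At 12 h in MT, CBF1 differed from 0 h by -1.11 (SD 0.85), with overlap: 2 of the 12 h libraries (42.2 and 36.02 FPKM) were above library 2 of 0 h (29.57). LOC109119806 differed by -2.69 (SD 1.11) and LOC101263186 by -3.02 (SD 0.98), both with all libraries of 12 h below those of 0 h, as in 20.6% of all tested genes. The mean FPKM of CBF1 at 0 h was 2.34 times that at 12 h, against 15.8 times for LOC109119806 and 10.8 times for LOC101263186. In the authors' deposited table the log2 ratios of 12 h to 0 h were -1.21 for CBF1, -3.96 for LOC109119806 and -3.41 for LOC101263186. Without the first MT libraries of 0 h and of 4 h, every time difference of the 3 genes in MT kept its sign. LOC109119806 depended most on them. Without library 1 of 0 h alone its difference was -0.85 at 4 h and -1.83 at 12 h. Without both first libraries it was -1.19 at 4 h. For CBF1 at 12 h the difference was -0.72 without library 3 of 0 h and -0.71 without library 2 of 12 h.

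In EX leaves all 3 genes were lower in every library of 4 h than in every library of 0 h, an arrangement of 16.6% of all tested genes. The log2 difference was -2.20 for CBF1 (SD 0.30), -3.22 for LOC109119806 (SD 0.61) and -1.90 for LOC101263186 (SD 0.62). The ratio of mean FPKM, 0 h to 4 h, was 4.74 for CBF1, 16.8 for LOC109119806 and 4.16 for LOC101263186. LOC109119806 thus had the largest difference of the 3 at 4 h in EX. Whether these differences from 0 h themselves differ between lines was not tested.

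At 12 h in EX all libraries were again below those of 0 h for the 3 genes, as for 16.1% of all tested genes. The log2 difference was -2.26 for CBF1 (SD 1.05), -2.74 for LOC109119806 (SD 0.58) and -3.78 for LOC101263186 (SD 1.47). Library 2 was the highest for CBF1 (77.79 FPKM) and LOC101263186 (16.16 FPKM), and for LOC101263186 library 3 also lay far below library 1 (0.19 against 2.83 FPKM). The difference of LOC101263186 was -4.78 without library 2 and -2.85 without library 3. LOC109119806 showed no such library, with 2.04 FPKM in library 2 between 2.91 and 1.6 in the others. On the second principal component library 2 of EX at 12 h lay at 10.8 and libraries 1 and 3 at -0.570 and -1.14, all within the range of the other libraries of the series.

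The next question is whether the lines differed at a given hour. At 0 h the mean log2 difference, EX minus MT, was 0.87 for CBF1 (SD 0.73), 0.94 for LOC101263186 (SD 0.92) and 0.48 for LOC109119806 (SD 1.23). The libraries of the lines overlapped for all 3 genes, whereas 21.6% of all tested genes had no overlap in either direction. For LOC109119806 the group means of FPKM, 21.8 and 21.2, were nearly equal, and the authors' deposited table gives a log2 ratio of 0.05. The MT mean holds library 1 (47.88 FPKM), which stood apart on the second principal component. The log2 difference was 1.34 without that library and -0.20 without library 3 of MT, so no direction can be given. Without library 2 of MT, the lowest of its group for CBF1 and LOC101263186, their differences were 0.32 and 0.39. Leaving out any other 1 of the 6 libraries gave up to 1.26 for CBF1 and up to 1.43 for LOC101263186.

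At 4 h the neighbours of CBF1 went opposite ways. LOC101263186 was higher in EX (15.2 ± 4.87 against 4.22 ± 1.58 FPKM, log2 difference 1.64, SD 0.45) and LOC109119806 was lower in EX (1.30 ± 0.651 against 3.91 ± 2.18 FPKM, log2 difference -1.04, SD 0.52; SD of FPKM with n = 3 each). For both, no EX library overlapped an MT library, as for 22.1% of all tested genes in either direction. CBF1 lay between them at 0.55 (SD 0.26). Its EX library 2 (19.7 FPKM) was just below MT library 1 (20.2 FPKM), and its other EX libraries were above all MT libraries. MT library 1 was 1 of the libraries that stood apart, and without it all EX libraries of CBF1 were above those of MT. Without it the log2 differences were 0.68 for CBF1, 1.80 for LOC101263186 and -0.70 for LOC109119806. The authors' deposited table gives log2 ratios of 0.58 for CBF1, 1.85 for LOC101263186 and -1.59 for LOC109119806.

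At 12 h LOC109119806 was the 1 gene of the 3 whose lines did not overlap (12.2% of all tested genes), now with EX higher: 2.18 ± 0.667 against 1.34 ± 0.290 FPKM (SD, n = 3 each; log2 difference 0.43, SD 0.25). The difference was 0.27 without library 1 of EX. These levels correspond to an estimated 14 to 43 fragments per library. For CBF1 the log2 difference was -0.28 (SD 1.14), although the mean FPKM was higher in EX, and the authors' deposited table gives 0.10. For LOC101263186 it was 0.19 (SD 1.51), and it became -0.15 with a pseudocount of 0.1 and -0.81 without library 2 of EX. No direction can be given for either gene at 12 h.

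The make-up of the summed level of the 3 genes differed between groups too. In MT, CBF1 held 42.9 to 74.9% of the sum at 0 h, 63.4 to 76.4% at 4 h and 85.5 to 89% at 12 h. In EX it held 50.7 to 68% at 0 h, 55.8 to 66.2% at 4 h and 71 to 87% at 12 h. At 4 h, LOC101263186 held 31 to 40.3% of the sum in EX but 12.5 to 20.7% in MT. LOC109119806 held 2.3 to 3.9% in EX and 11.1 to 19.9% in MT at that hour. The sum itself was 129.7 ± 68.7 FPKM in MT and 204.8 ± 63.5 in EX at 0 h. At 4 h it was 25.0 ± 6.39 and 41.7 ± 9.59 FPKM, and at 12 h 36.1 ± 15.3 and 43.2 ± 45.8 (SD, n = 3 each).

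**Figure D2:**
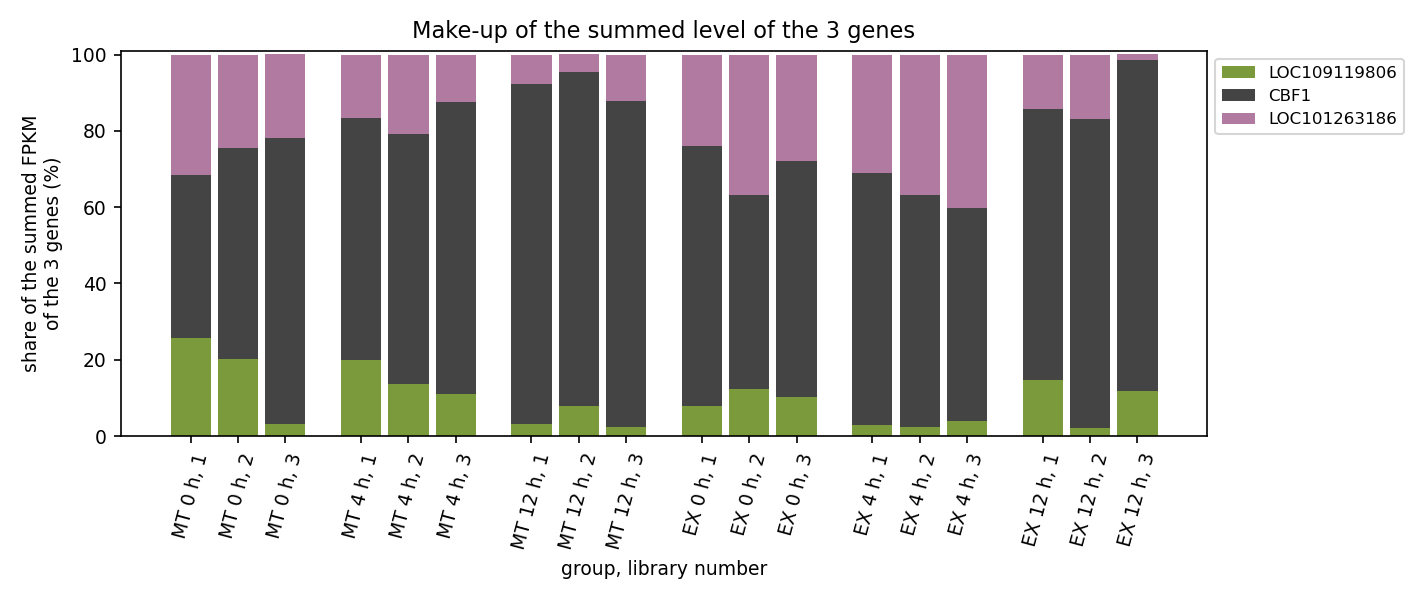
Stacked bars give the percentage of the summed FPKM of the 3 genes that each gene held in each library, grouped by line and hours. CBF1 is the largest block in all 18 libraries, and LOC101263186 takes 31 to 40.3% in EX at 4 h against 12.5 to 20.7% in MT at 4 h.

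Libraries of 1 group differed more for these genes than for most others. In EX at 12 h the SD on the log2 scale was 1.45 for CBF1 and 1.93 for LOC101263186, against a median of 0.18 over all tested genes, above 99.7% and 99.9% of them. Among genes within 0.5 log2 units of the same level the shares were also 99.7% and 99.9%. In MT at 0 h the SDs were 0.98 for CBF1, 1.05 for LOC101263186 and 1.56 for LOC109119806, where the median gene had 0.27. The spread was not large in every group: CBF1 had 0.23 in MT at 4 h, below the median of 0.27, and LOC109119806 had 0.19 in MT at 12 h.

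CBF1 and LOC101263186 shared much of this variation. Over the 18 libraries, on the log2(FPKM + 1) scale, Pearson's r between them was 0.87, and LOC101263186 ranked 2 of 17869 genes by likeness to CBF1. The libraries share the effect of the hours, but after removal of the group means r was still 0.87. LOC101263186 and CBF1 ordered their 3 libraries alike in 3 of 6 groups. LOC109119806 was less like CBF1, with r = 0.66 (rank 626) over the 18 libraries and 0.09 after removal of the group means, and its r with LOC101263186 was 0.72 and 0.40. Without the first MT libraries of 0 h and 4 h, r with CBF1 was 0.86 for LOC101263186 and 0.68 for LOC109119806 over 16 libraries. The genes were picked with such values in view, so these correlations are a description only.

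Other genes with a pattern like that of CBF1 lay on other chromosomes. By Pearson's r over the 18 libraries the nearest 5 outside the neighbours were LOC101254242 (chromosome 10, r = 0.87), LOC101258270 (chromosome 6, 0.86), WRKY40 (chromosome 6, 0.86), LOC101253141 (chromosome 10, 0.86) and ERF36 (chromosome 10, 0.86). WRKY40 encodes a WRKY transcription factor and ERF36 an AP2/ERF factor, and the next gene with a symbol was tXET-B1 (r = 0.84), a xyloglucan endotransglucosylase gene of the cell wall. WRKY40 stood at 189.7 ± 62.3 FPKM in MT and 282.3 ± 65.3 in EX at 0 h, and at 67.6 ± 4.76 and 58.8 ± 5.82 at 4 h (SD, n = 3 each). ERF36 stood at 113.2 ± 47.0 and 159.1 ± 55.6 FPKM at 0 h, and at 56.1 ± 1.49 and 81.2 ± 22.6 at 4 h. All 6 were higher in library 2 of EX at 12 h than in libraries 1 and 3, as CBF1 was, by as little as 61.63 against 54.96 and 47.96 FPKM in ERF36 and as much as 56.12 against 10.44 and 21.42 in tXET-B1. As these genes were picked by r with CBF1 over the same libraries, a shared high library is partly built in and is no separate evidence.

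The neighbours had other nearest genes. For LOC109119806 these were LOC101267076 (chromosome 2, r = 0.97), LOC101253047 (chromosome 11, 0.94) and LOC101248985 (chromosome 6, 0.94). For LOC101263186 they were LOC109120527 (chromosome 6, r = 0.93), SRG2 (chromosome 7, 0.91) and LOC101267223 (chromosome 4, 0.90), and CBF1 ranked 8 of 17869. LOC101267076 read 29.75, 22.3 and 12.06 FPKM in the MT libraries of 0 h, the same order of libraries as LOC109119806, and 8.82, 8.27 and 8.39 in those of 12 h. It was picked by its likeness over these libraries, so the shared order is partly built in.

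**Figure D3:**
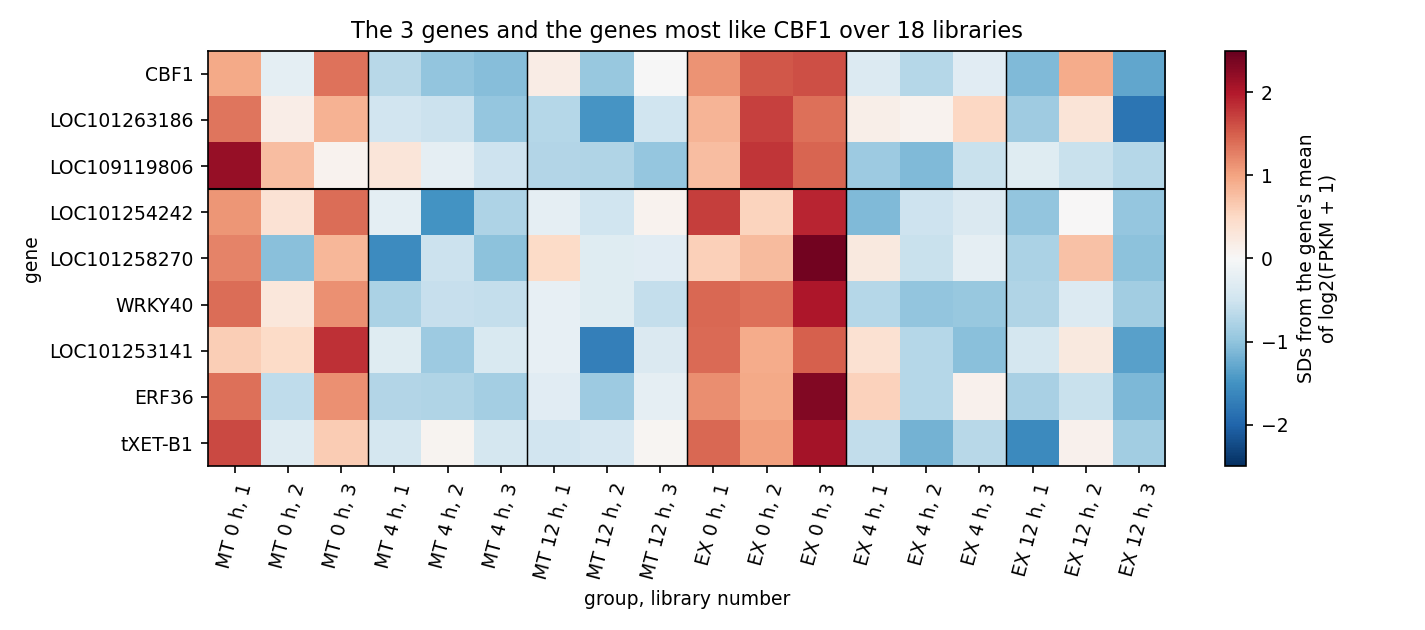
Colours give each gene's log2(FPKM + 1) in each of the 18 libraries as SDs from its own mean, with the 3 neighbouring genes above the line and the genes most like CBF1 below it. The 0 h columns are mostly red, and library 2 of EX at 12 h stands above libraries 1 and 3 in all genes except LOC109119806. Genes below the line were picked by likeness over these same libraries, so shared patterns are partly built in.

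Genes around the 3 served as a comparison on the same stretch of chromosome 3. Of the 10 nearest tested genes, 5 on either side, none had a log2 difference as negative as CBF1 in the same comparison at 4 h or 12 h. The 3 genes were selected partly on their levels and the flanking genes by position. This contrast therefore cannot show that lower levels after 0 h are particular to the 3. At 4 h in MT they ranged from -0.52 to 1.09, with 1 called higher and 1 lower (limma adjusted p under 0.05), beside 6.73% and 7.43% of all tested genes. At 12 h they ranged from -0.36 to 1.196, with 1 and 1, beside 8% and 13.2%. In EX they ranged from -1.05 to 1.34 at 4 h, with 1 called higher and 0 lower, beside 6.3% and 4.99% of all tested genes. At 12 h in EX they ranged from -0.82 to 1.27, with 2 and 2, beside 10.1% and 6.54%. Between lines 0 of the 10 were called at 0, 4 or 12 h by limma, where few of all tested genes were called either (0.979% higher and 2.19% lower at 0 h, and under 1% at 4 and 12 h).

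The flanking gene with calls in all time comparisons was LOC101262593, 52.2 kb after the start of CBF1. It rose from 14.5 ± 1.22 to 32.3 ± 5.55 and 34.6 ± 3.10 FPKM in MT and from 13.9 ± 3.44 to 36.2 ± 3.63 and 34.3 ± 3.77 in EX (SD, n = 3 each; limma log2 1.09 to 1.34, SE 0.17, adjusted p = 8.08e-05 to 4.53e-04). It overlaps ABCB20 on the opposite strand, and no source used here tells whether strand was used in counting, which leaves its level uncertain. LOC101265206 was called lower at 4 h in MT and at 12 h in EX (log2 -0.47 and -0.55), LOC101262186 lower at 12 h in both lines (-0.36 and -0.41), and LOC101261589 higher at 12 h in EX (0.59). These 3 lost their calls without 2 to 4 of the 6 libraries compared (adjusted p = 0.0592 to 0.132), and the first 2 overlap another gene. In MT, median-of-ratios scaling also ended the calls of LOC101265206 (adjusted p = 0.0508) and LOC101262186 (0.0771), and LOC101265206 lost its call without the first MT libraries of 0 h and 4 h (0.0982). In a fit of the compared libraries alone LOC101265206 in MT (0.288) and LOC101262186 in MT (0.159) and EX (0.0511) were not called. LOC101262893, the nearest gene, is on the minus strand, and its near end lies 5.2 kb after the start of CBF1. It overlaps LOC101262186 on the same strand, which leaves its level uncertain too. LOC101262893 was not called, with group means of 6.36 to 8.17 FPKM.

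**Figure D4:**
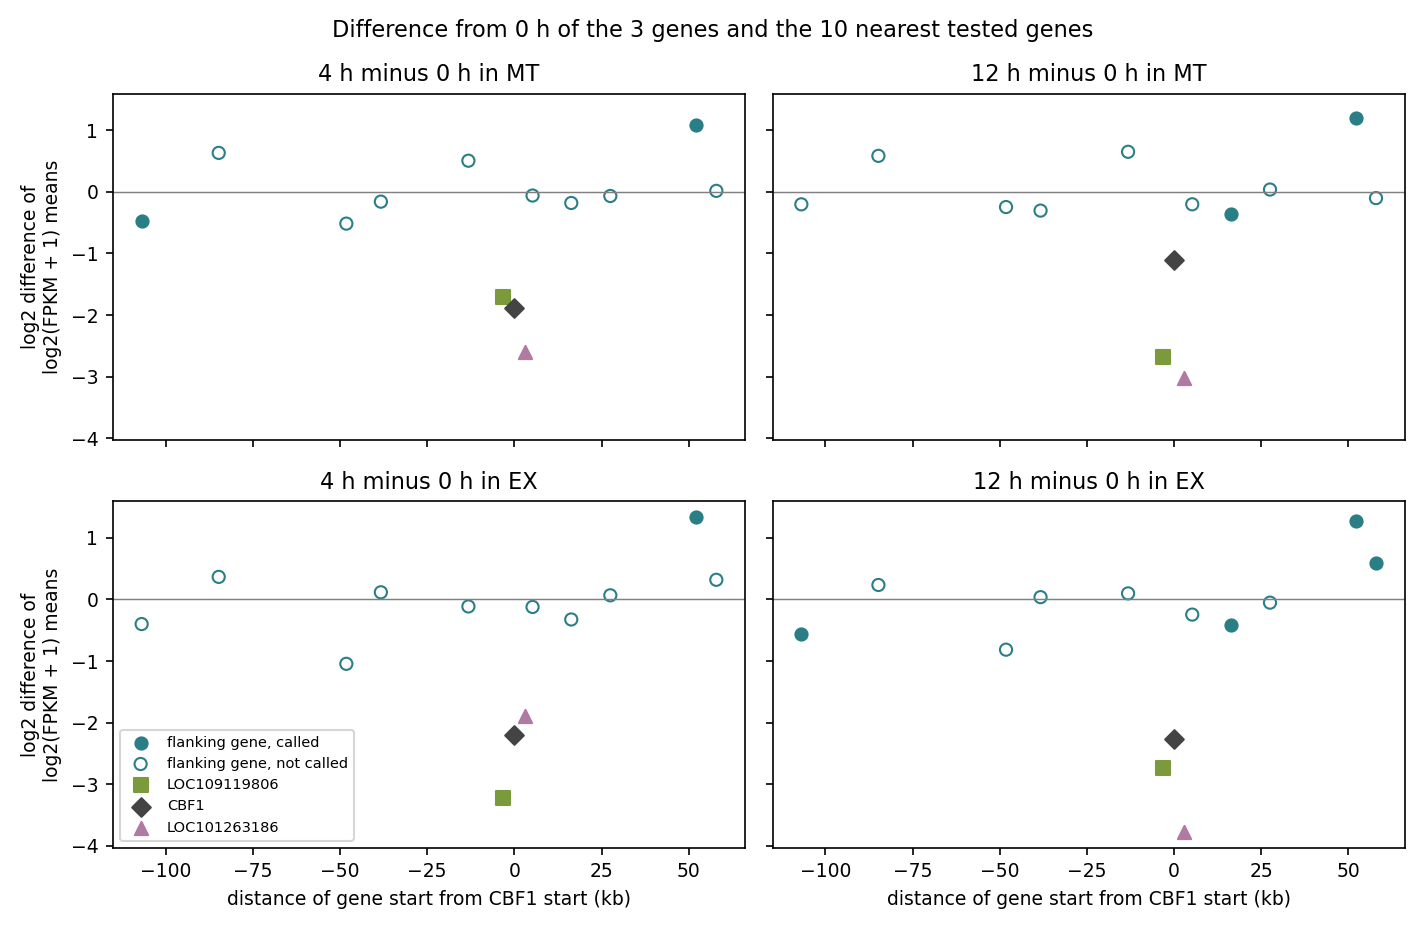
Each panel plots the log2 difference from 0 h against the distance in kb of a gene's start from that of CBF1, for the 3 neighbouring genes and the 10 nearest tested genes (filled where limma's adjusted p was under 0.05). Start is the lower coordinate on either strand. The 3 genes lie between -1.11 and -3.78, and the flanking genes between -1.05 and 1.34.

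The remaining question is how other genes of the cold pathway moved. In bulk leaf RNA fewer cells of a type and less RNA per cell cannot be told apart, for these genes as for the 3 neighbours. A list of DREB factors, upstream regulators, clock genes and cold or dehydration proteins matched 29 genes by symbol, of which 26 were tested. Between the lines, limma called 0 of the 26 at each hour. Over all tested genes 0.979% were called higher and 2.19% lower in EX at 0 h. The shares were 0.134% and 0.162% at 4 h, then 0.0839% and 0.0504% at 12 h. At an unadjusted p under 0.05 in limma the list had 5, 1 and 2 genes at 0, 4 and 12 h. The share of all tested genes at this looser threshold was not computed, so these counts cannot be read as an excess. The list's adjusted calls at 0 h numbered 4 without library 2 of MT and 0 without any other 1 of the 6 libraries. Over all genes the calls at 0 h numbered 567 of 17870, but 3397 of 17918 without library 2 of MT, 90 without library 1 of EX and 23 in a fit of the 6 compared libraries alone.

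In MT at 4 h, 3 of the 26 were called higher and 2 lower than at 0 h, beside 6.73% and 7.43% of all tested genes, and the list's median log2 difference was 0.12 against -0.01 over all. DREB3, which encodes a factor of the same AP2/ERF family as CBF1, rose from 97.8 ± 27.1 to 245.4 ± 100.4 FPKM (log2 1.28, SE 0.31, limma adjusted p = 0.0123). TIL, a temperature-induced lipocalin gene, rose from 44.5 ± 6.89 to 62.1 ± 1.89 FPKM (log2 0.48, adjusted p = 0.0105). BZR1, a brassinosteroid response factor gene, rose by log2 0.45 (adjusted p = 0.0323). ICE1a, related to the Arabidopsis activator of CBF genes, fell from 66.8 ± 8.49 to 46.0 ± 6.02 FPKM (log2 -0.53, SE 0.16, adjusted p = 0.0381). LNK1, related to clock-associated genes of Arabidopsis, fell from 39.1 ± 5.85 to 22.2 ± 6.96 FPKM (log2 -0.83, adjusted p = 0.0124). The count of 5 was 0 without library 3 of MT at 0 h, 2 without library 1 of MT at 4 h and 0 in a fit of the 6 compared libraries alone. ICE1a (0.0815) and DREB3 (0.0521) lost their calls without the first MT libraries of 0 h and 4 h. ICE1a also lost its call with median-of-ratios scaling (0.0509) and without any 1 of 4 of the 6 libraries (0.0523 to 0.13). BZR1 lost its call without any 1 of 3 of them (0.0549 to 0.126), DREB3 and LNK1 without any 1 of 2, and TIL without 1.

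In MT at 12 h, 2 genes were called higher and 3 lower, beside 8% and 13.2% of all tested genes, with a list median of 0.03 against -0.06. DREB3 (log2 1.10, limma adjusted p = 0.0217) and TIL (log2 0.56, adjusted p = 0.0033) were higher again, and LNK1 lower (log2 -0.70, adjusted p = 0.0227). PHYB2, a phytochrome B photoreceptor gene, fell from 8.95 ± 3.62 to 2.65 ± 1.41 FPKM (log2 -1.43, SE 0.36, adjusted p = 0.0109). EIL2, a gene of ethylene signalling, fell from 164.3 ± 60.8 to 79.9 ± 12.9 FPKM (log2 -0.96, adjusted p = 0.0386), with overlapping libraries. Its call was lost without the first MT libraries of 0 h and 4 h (0.109), with no filter on low values (0.0522) and without any 1 of 5 of the 6 libraries (0.0551 to 0.149). DREB3 and LNK1 each lost their call without any 1 of 3 of the 6 libraries (limma adjusted p = 0.0515 to 0.107 and 0.0676 to 0.104). PHYB2 did so without library 1 of MT at 12 h (0.0547), and TIL kept its call without any 1 library. The count of 5 was 8 without library 2 of MT at 0 h, 2 without library 3 of MT at 0 h or library 2 of MT at 12 h, 1 without library 1 of MT at 12 h, and 0 with the compared libraries alone.

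In EX 2 genes were called higher and 0 lower at 4 h, beside 6.3% and 4.99% of all tested genes, and 2 and 0 at 12 h, beside 10.1% and 6.54%. Both times these were HY5 and TIL, and the list medians were 0.12 and 0.27 against 0.02 and 0.04 over all tested genes. HY5, a bZIP factor gene of light signalling, rose from 1.37 ± 0.350 to 9.16 ± 3.41 FPKM at 4 h (log2 2.05, SE 0.42, limma adjusted p = 0.0046) and 9.17 ± 2.27 at 12 h (log2 2.08, adjusted p = 0.00324). In MT HY5 was not called (5.31 ± 4.53, 10.1 ± 3.87 and 10.5 ± 4.24 FPKM, log2 0.99 and 1.03). Its MT libraries of 0 h read 10.49, 2.13 and 3.3 FPKM, and library 1 was 1 of those that stood apart. Libraries 2 and 3 were below every MT library of 4 h (7.1 to 14.46 FPKM) and of 12 h (6.92 to 15.16 FPKM). The difference between lines in the change of HY5 was not tested. TIL rose from 40.7 ± 0.339 to 54.9 ± 2.75 FPKM at 4 h (log2 0.42, adjusted p = 0.0259) and 57.5 ± 6.05 at 12 h (log2 0.48, adjusted p = 0.00949). HY5 kept its calls without any 1 of the libraries compared, whereas TIL lost its call at 4 h without any 1 of the 6 libraries (0.0545 to 0.102) and at 12 h without library 3 of EX at 12 h (0.0584). The count at 4 h was accordingly 1 in each of those fits, and at 12 h it was 1 without library 3 of EX at 12 h and 4 without the first MT libraries of 0 h and 4 h.

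Of the cold and dehydration proteins, TIL was the 1 tested gene of 8 with a call, and DREB1 and DREB2 had none. DREB1 is here the symbol of a gene on chromosome 6, and whether that gene belongs to the CBF group was not tested. The following 3 genes were chosen after their values were seen, and limma called none of them in the 7 comparisons. COR413IM1, related to the cold-regulated membrane proteins of Arabidopsis, lay between 21.0 ± 1.43 and 28.0 ± 0.927 FPKM over the 6 group means. GolS2, a galactinol synthase gene, lay between 2.43 ± 1.12 and 4.10 ± 0.393 FPKM. The dehydrin gene TAS14 had group means from 10.003 ± 3.96 FPKM in EX at 4 h to 96.4 ± 117.7 in EX at 12 h, with libraries too far apart for a direction.

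**Figure D5:**
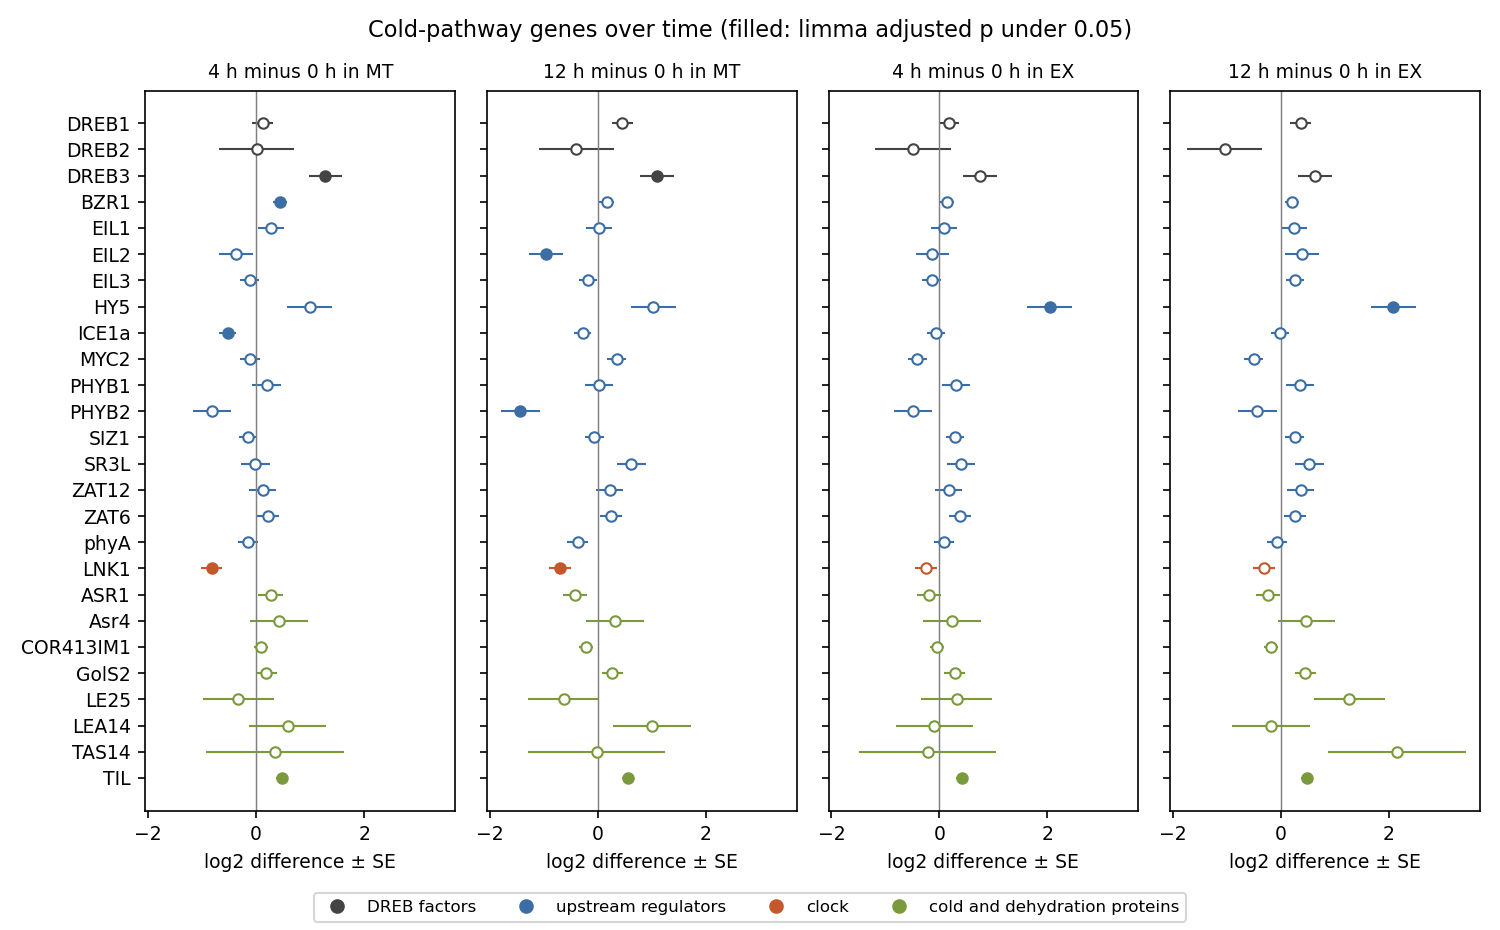
Points give the log2 difference from 0 h with its SE for the 26 tested cold-pathway genes in 4 comparisons, coloured by role, filled where limma's adjusted p was under 0.05. HY5 reaches 2.05 and 2.08 in EX, against 0.99 and 1.03 in MT, where it was not called. DREB3 reaches 1.28 and 1.10 in MT, against 0.76 and 0.63 in EX, where it was not called. Differences between lines in these changes were not tested.

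Markers of wounding were looked at because CBF1 was highest at 0 h. Of the markers listed, LAPA1 and loxD matched, and their summed level was 21.2 to 153.4 FPKM in MT and 82.2 to 289.8 in EX at 0 h. It was 59.0 to 80.01 and 77.1 to 165.3 FPKM at 4 h, and 101.9 to 222 and 65.4 to 140.3 at 12 h. Their part in the levels of the 3 genes was not tested.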

How the data were processed

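The table the authors deposited holds, per the file headers, an FPKM value per gene and library, log2 ratios of pairs of groups, and p-values and q-values, of which the p-values and q-values were not used. Tools listed in the submitters' processing notes, with no roles, are RSEM 1.2.12, DESeq2 1.4.5, HISAT2 2.0.4 and Bowtie2 2.2.5. The build and the strand setting are not given in the sources used here. All 18 FPKM columns matched 1 library title each.

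The 17870 genes whose mean reached 1 FPKM in any of the groups were fitted on log2(FPKM + 1) with limma 3.58.1 (R 4.3.3), with 6 group means over 18 libraries and a mean-variance trend, and p-values were adjusted by Benjamini-Hochberg within each of 7 comparisons. The fit was first tested on simulated data with independent libraries and, for each gene, the same spread in every group. That simulation does not cover libraries that stand apart or spreads that differ between groups. Whether libraries are separate plants is not stated, so p-values cover library-to-library spread, possibly only technical. Depth was estimated from genes with 1 transcript as the value that made most low FPKM whole fragments (91.4 to 94.4% within 0.1), and covers counting only.

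The members, lists and tests were chosen with earlier results of these data known. List genes were matched by symbol alone; 3 genes taken by mistake through the species prefix Le were removed after values were seen. Named are the members, the 5 genes most like CBF1 and the 3 most like it with a symbol, the 3 most like each neighbour, up to 3 called list genes per direction and comparison, and flanking genes with calls; COR413IM1, GolS2 and TAS14 were added after their values were seen. Same-numbered libraries deviated together in every pair only for EX against MT at 12 h (r = 0.568, 0.231 and 0.405), where the fit with the number as a block changed no list call. Alternatives were the pseudocount, filter, scaling, moderation, block and libraries used.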

Additional observations from a re-analysis of the deposited data

Results flagged for a closer look

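LOC109119806 was singled out because its line difference went opposite ways at 2 times with no library out of order. At 4 h all EX libraries were below all MT libraries (log2 difference, EX minus MT, -1.04), and at 12 h all EX libraries were above all MT libraries (0.43). The difference between these effects was not tested. At 4 h the log2 difference was -0.70 without library 1 of MT, 1 of the libraries that stood apart. The levels concerned are low, from 0.75 to 6.35 FPKM, or an estimated 11 to 87 fragments per library. Where groups do not overlap, leaving out libraries cannot change the direction, so such fits say nothing about it. No overlap, in either direction, was found for 22.1% of all tested genes at 4 h and 12.2% at 12 h.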

How the results depend on the processing

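Of the values recomputed under the alternatives, 305 stayed within 1.5 times of a count or within 1 pooled SD of a difference with its sign, 21 moved further and 7 reversed, and the cause was not tested. The 9 calls of flanking genes over the 7 comparisons were 6 to 13 without 1 library. For the cold-pathway counts, the compared libraries alone gave 0 for both MT time comparisons (5 and 5 with all libraries). With the genes matched by the species prefix the counts were 1 for EX against MT at 0 h and 8 and 8 for MT at 4 and 12 h, and the count for EX at 12 h was 4 without the first MT libraries of 0 h and 4 h (both alternatives chosen after seeing the data). Leaving out 1 library gave 0 to 4 for EX against MT at 0 h, 0 to 6 for MT at 4 h, 1 to 8 for MT at 12 h, 1 to 1 for EX at 4 h and 1 to 2 for EX at 12 h. The log2 difference of LOC109119806 between 4 and 0 h in EX was -3.93 with a pseudocount of 0.1. At 12 h the line difference of LOC101263186 was -0.15 with that pseudocount and -0.29 with medians, and -0.81 to 1.11 without 1 library; that of CBF1 was -1.12 to 0.19, and that of LOC109119806 at 0 h -0.20 to 1.34. Scaling by median-of-ratios factors changed no direction of the 3 genes, but ended the calls of ICE1a (adjusted p = 0.0509), LOC101265206 (0.0508) and LOC101262186 (0.0771) in MT. With the replicate block the list counts were 5 and 4 for MT at 4 and 12 h, where EIL2 (adjusted p = 0.0508) lost its call, and no other list call changed. At the estimated depth the lowest value of LOC101263186 rests on about 3 fragments.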
